A study of Mus musculus with 9 samples.

Results

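The collagen genes of the mouse cornea were taken as the genes on the array whose symbol has the form Col, number, a, number. Rows of the value table were used where the platform annotation gives exactly 1 symbol, and the row with the highest mean over the 9 arrays stood for a gene. This gave 44 collagen genes among 22180 genes. They were grouped into 11 fibrillar genes, 6 type IV (basement membrane) genes, 9 FACIT genes (fibril-associated collagens with interrupted triple helices) and 4 transmembrane genes. The others were 6 type VI (beaded filament) genes, 3 short-chain network genes, 2 multiplexin genes, the type VII gene of anchoring fibrils and 2 genes of other types, Col26a1 and Col28a1.

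RNA of whole corneas was hybridised to 1-colour arrays for 3 groups of 3 replicates, each replicate a pool of 10 corneas from 5 mice. Mutant mice carried the corn1 allele of Dstn, which encodes the actin depolymerising protein destrin. Rescued mice carried the same allele with Srf, the gene for serum response factor, ablated in the corneal epithelium, and the driver of that ablation is not named in the sources used here. WT mice were the third group, and every group had a mixed background (FVB, Swiss Black, 129, C57BL6/J and A.BY), was injected with doxycycline from postnatal day 28 to 58 and was collected at day 58.

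The corneal stroma owes its strength and its clarity to parallel fibrils of type I collagen, whose diameter is set in part by type V collagen built into them. FACIT collagens coat such fibrils, and type VI collagen forms a fine filament network between them. The epithelium rests on a basement membrane with a type IV network, and is tied to the stroma by hemidesmosomes, which hold type XVII collagen, and by anchoring fibrils of type VII collagen. The corneal endothelium lays down Descemet's membrane, a thick basement membrane with a lattice of type VIII collagen.

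Levels are log2 intensities as deposited, with the log base inferred from their range, and means are given ± SD (n = 3). Dstn was at 12.57 ± 0.02 in WT, 5.63 ± 0.15 in mutant and 5.62 ± 0.01 in rescued pools. Srf was at 9.13 ± 0.13, 10.68 ± 0.12 and 9.01 ± 0.51 in that order. Krt12, a keratin of the corneal epithelium, had group means from 13.53 to 13.95, and Kera, a proteoglycan gene of stromal keratocytes, from 12.28 to 12.70. Array medians lay between 6.75 and 6.78, and 37 of the 44 collagen genes had a mean at or above 6.77, the median of all values. Pearson correlations over all rows were 0.990 to 0.992 between arrays of a group and 0.971 to 0.974 between WT and mutant arrays. Intensities depend on the probes as well as on the RNA, so levels are compared between groups and not between genes.

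WT replicate 3 stood apart from the other WT replicates for collagens of the stroma. Col1a1, the α1 chain of type I collagen, was at 12.29, 12.39 and 11.00 in the 3 WT pools by number, while the 6 mutant and rescued arrays lay from 12.13 to 12.49. Against the mean of the other WT arrays, WT replicate 3 was lower by 1.34 for Col1a1 on the log2 scale, by 1.00 for Col1a2, by 1.01 for Col6a3 and by 0.91 for Col5a1. For Dcn, Lum and Kera, genes of keratocyte proteoglycans, the same difference was −0.04, −0.23 and −0.25. It was not limited to collagens, with −0.87 for the proteoglycan gene Fmod, −0.66 for the matrix gene Postn, −0.61 for the lysyl hydroxylase gene Plod1 and −0.34 for the proteoglycan gene Bgn. WT replicate 3 held the lowest of the 9 values for 13 of the 44 collagen genes, against 13.4% of all genes. The values of the stromal collagens and of Fmod are given with and without it.

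Between mutant and WT corneas, 16 of the 44 collagen genes passed an adjusted p of 0.05 (limma, Benjamini-Hochberg over all genes) and are called here, 8 higher and 8 lower in the mutant. This is 36.4% of the collagen genes, against 31.6% of all genes tested (15.1% higher and 16.5% lower), so the share of collagen genes called was near that of the whole array. Col3a1, Col14a1 and Col6a5 rose at least 2-fold in the mutant, and no collagen gene fell by as much, where 5.03% of all genes differed by 2-fold or more (3.04% higher and 1.99% lower). The median log2 difference was −0.02 for the collagen genes and −0.02 for all genes, and the median size of the difference was 0.21 and 0.15. The values of mutant and WT did not overlap for 18 collagen genes, or 40.9%, against 44.7% of all genes. In RNA of whole corneas, fewer cells of a type and less RNA per cell cannot be told apart.

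Between rescued and mutant corneas, 9 of the 44 genes were called, 3 higher and 6 lower in rescued, which is 20.5% against 13.3% of all genes (6.46% higher and 6.88% lower). No collagen gene differed at least 2-fold there (1.41% of all genes, 0.748% higher and 0.658% lower). Between rescued and WT, 5 were called, 3 higher and 2 lower, which is 11.4% against 13.7% (6.28% higher and 7.43% lower). Of these, Col3a1 alone was at least 2-fold higher and none was at least 2-fold lower (1.68% of all genes, 1.20% and 0.478%). Values did not overlap for 21 collagen genes, or 47.7%, between rescued and mutant, against 32.2% of all genes. Between rescued and WT they did not overlap for 12, or 27.3%, against 31.6% of all genes. Each pair of comparisons shares a group of arrays, so a gene's differences are set side by side below and are not independent of each other.

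**Figure D1:**
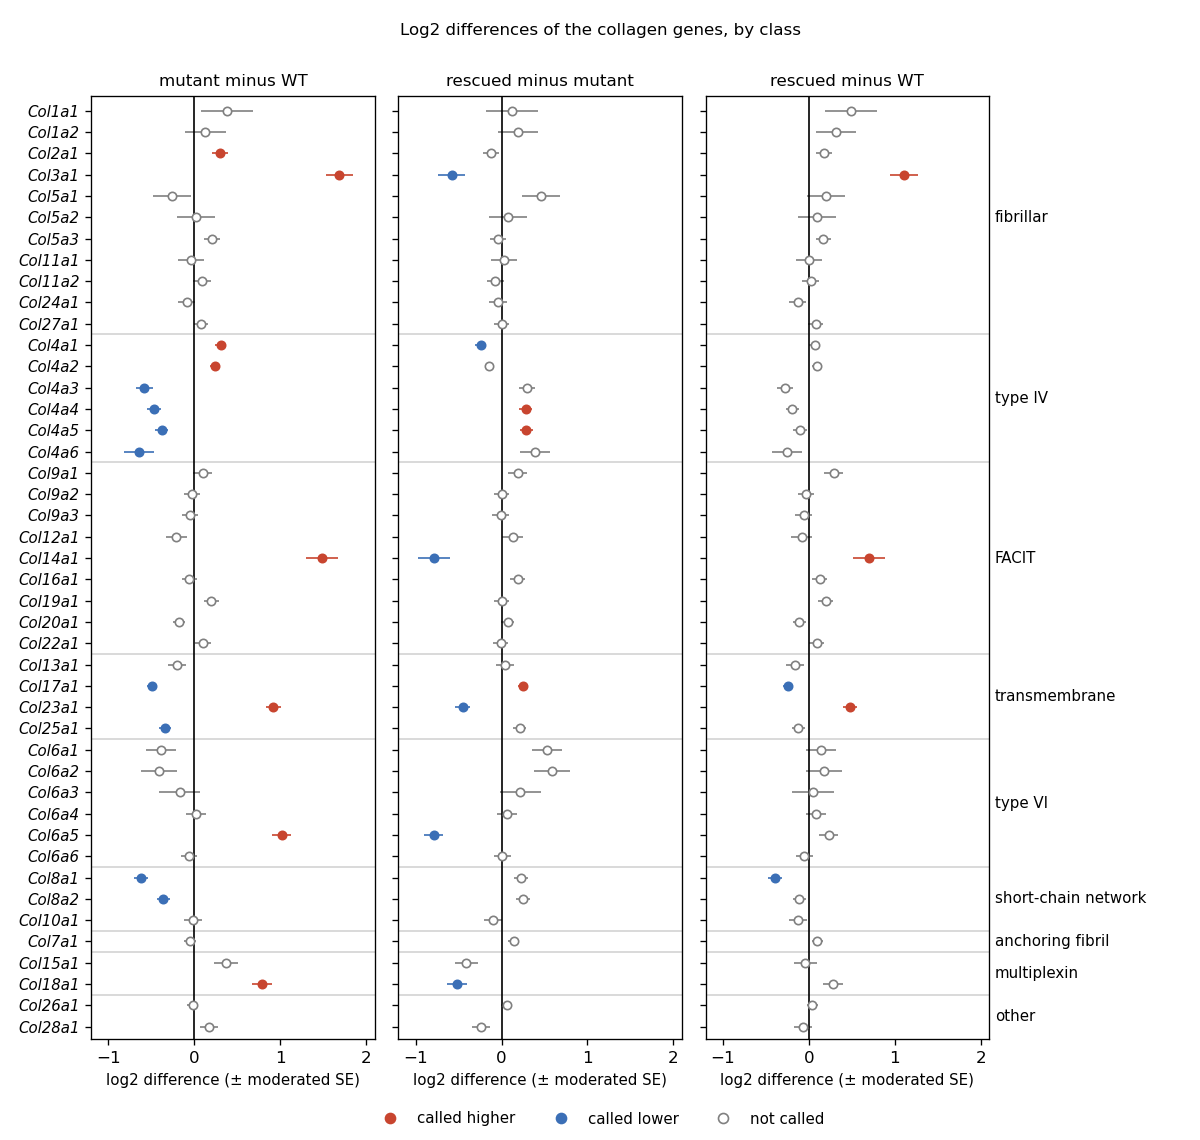
Log2 difference with its moderated SE (x axis) for each of the 44 collagen genes (y axis, by class) in the 3 comparisons, 1 panel each. Red points were called higher, blue points lower and open grey points were not called at an adjusted p under 0.05, and the largest difference is the 1.69 of Col3a1 between mutant and WT.

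The type IV genes, which encode the 6 chains of the basement membrane network, were all called between mutant and WT, and in opposite directions. Of all genes, 31.6% were called in that comparison. Col4a1 and Col4a2, whose chains form the network found in nearly every basement membrane, rose. Col4a3, Col4a4, Col4a5 and Col4a6, whose chains form the networks of specialised basement membranes, fell. The median difference of the class was −0.43. The 6 genes lie in the mouse genome as 3 neighbouring pairs, Col4a1 with Col4a2 on chromosome 8, Col4a3 with Col4a4 on chromosome 1 and Col4a5 with Col4a6 on chromosome X. Within each pair the genes are transcribed away from each other, from starts that lie near together. In RefSeq's annotation of GRCm38.p6 the starts of Col4a1 (minus strand, 11312826) and Col4a2 (plus strand, 11312805) overlap by 22 bases. The starts of Col4a6 (minus strand, 141474076) and Col4a5 (plus strand, 141475419) lie 1343 bases apart.

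The stretches of DNA before the starts of 3 of the genes that fell are shown so that the start regions of genes that fell together can be read side by side. They come from RefSeq (GRCm38.p6), are written 5′ to 3′ on the gene's own strand and end at the base before its annotated start. Capitals mark GGGCGG or its complement CCGCCC, the GC box. Col4a4 is at chr1:82586850-82586919 (minus strand), Col4a5 at chrX:141475299-141475418 (plus strand) and Col4a6 at chrX:141474077-141474196 (minus strand).
Col4a4: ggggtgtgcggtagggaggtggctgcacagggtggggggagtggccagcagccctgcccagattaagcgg
Col4a5: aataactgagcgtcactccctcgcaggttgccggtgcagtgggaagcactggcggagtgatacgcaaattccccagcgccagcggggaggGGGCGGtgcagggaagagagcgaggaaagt
Col4a6: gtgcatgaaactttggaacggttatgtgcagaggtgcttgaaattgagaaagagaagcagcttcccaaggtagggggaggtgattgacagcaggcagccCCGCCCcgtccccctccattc

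Col4a3, the brightest type IV gene, was at 8.95, 9.03 and 8.91 in WT, 8.23, 8.60 and 8.32 in mutant and 8.70, 8.72 and 8.62 in rescued pools. All mutant arrays were lowest, all WT arrays highest, and no groups overlapped. The mutant was lower than WT by 0.58 ± 0.09 on the log2 scale (moderated SE, 1.5-fold, limma adjusted p = 0.00107). For Col4a3, rescued minus mutant was 0.30 (adjusted p = 0.0674), or 0.41 (adjusted p = 0.00911, called) without mutant replicate 2. Rescued minus WT was −0.28 (adjusted p = 0.0807), and was called over the 6 arrays of that comparison alone (adjusted p = 0.0372).

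The values of the other type IV genes are given because the whole class was called, a choice made after their values were seen. Col4a4 was at 8.00, 8.19 and 8.15 in WT, 7.55, 7.77 and 7.61 in mutant and 8.00, 7.91 and 7.87 in rescued pools. It fell by 0.47 between WT and mutant (adjusted p = 0.00146), was higher by 0.28 in rescued than in mutant (adjusted p = 0.0486), and rescued minus WT was −0.19 (adjusted p = 0.162). The rescued arrays lay above all mutant arrays and just below the WT arrays.

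Col4a5, whose chain joins both the α3-α4-α5 and the α5-α6 network, was at 8.17, 8.08 and 8.07 in WT, 7.62, 7.84 and 7.71 in mutant and 8.07, 7.89 and 8.07 in rescued pools. The mutant arrays were the 3 lowest of the 9. The difference of Col4a5 between mutant and WT was −0.38 (adjusted p = 0.00477), rescued minus mutant 0.29 (adjusted p = 0.0433) and rescued minus WT −0.10 (adjusted p = 0.511).

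Col4a6 was at 7.30, 7.65 and 7.48 in WT, 6.56, 6.67 and 7.28 in mutant and 7.35, 7.08 and 7.26 in rescued pools. Mutant replicate 3 stood near the rescued arrays, well above the other mutant replicates. For Col4a6, mutant minus WT was −0.64 ± 0.17 (adjusted p = 0.0193), a call that was lost without mutant replicate 1 or 2 or WT replicate 2 or 3, with an adjusted p of up to 0.0714. For Col4a6, rescued minus mutant was 0.39 (adjusted p = 0.192), or 0.61 (adjusted p = 0.0151, called) without mutant replicate 3, and rescued minus WT −0.25 (adjusted p = 0.418).

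Col4a5 and Col4a6 are X-linked, and the mean log2 intensity of the Y-linked genes Eif2s3y and Kdm5d differed between pools. It was 5.56, 9.96 and 5.50 in WT, 7.91, 9.83 and 8.51 in mutant and 6.93, 9.27 and 9.07 in rescued replicates 1 to 3. With that mean as a covariate in limma, mutant minus WT was −0.38 (adjusted p = 0.017) for Col4a5 and −0.68 (adjusted p = 0.0379) for Col4a6. With it the rescued minus mutant calls of Col4a5 (adjusted p = 0.0626) and Col4a4 (adjusted p = 0.0537) were lost.

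Col4a1 was at 8.23, 8.32 and 8.23 in WT, 8.56, 8.54 and 8.62 in mutant and 8.36, 8.38 and 8.25 in rescued pools. Every mutant array was above every other array, and rescued and WT overlapped. For Col4a1, mutant minus WT was 0.31 ± 0.06 (1.24-fold, adjusted p = 0.00391), rescued minus mutant −0.24 (adjusted p = 0.0321) and rescued minus WT 0.07 (adjusted p = 0.559). Col4a2 was at 8.09, 8.03 and 8.07 in WT, 8.32, 8.24 and 8.34 in mutant and 8.16, 8.19 and 8.16 in rescued pools, with no overlap between any groups. The difference of Col4a2 between mutant and WT was 0.24 ± 0.06 (1.18-fold, adjusted p = 0.00944), rescued minus mutant −0.14 (adjusted p = 0.158) and rescued minus WT 0.10 (adjusted p = 0.289).

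**Figure D2:**
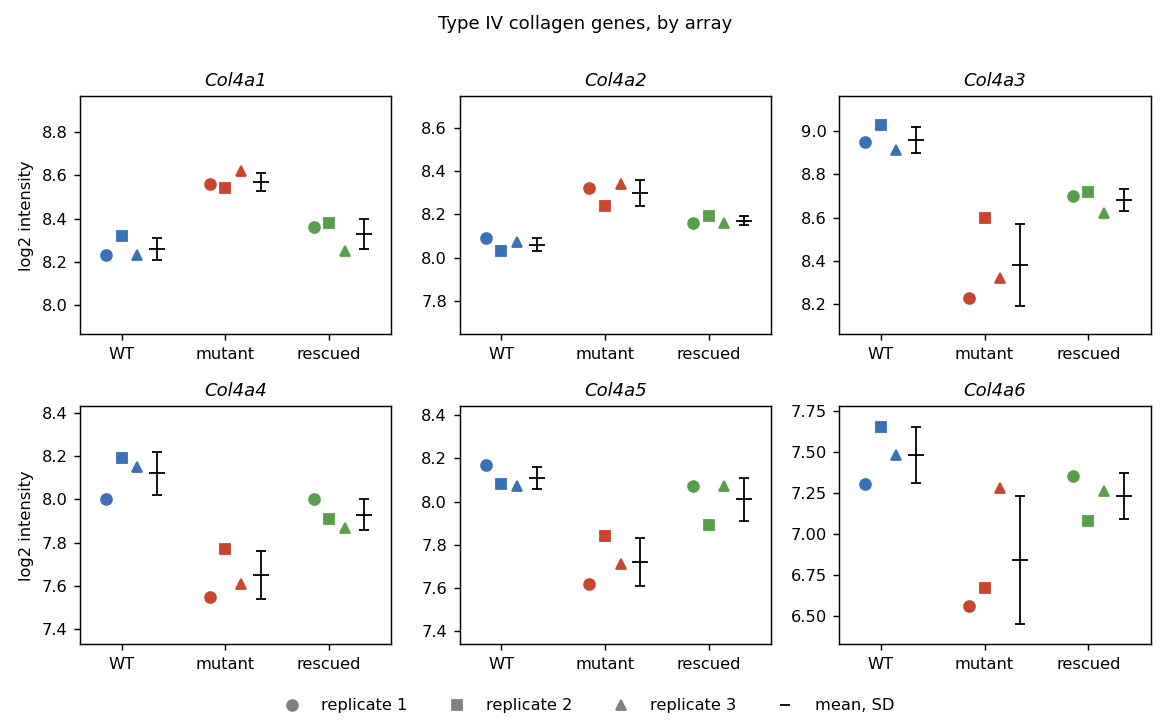
Log2 intensity (y axis, its range differs between panels) of the 6 type IV genes by group (x axis), with 1 point per array, marker shapes for replicates, and the mean and SD in black. Mutant arrays lie above WT for Col4a1 and Col4a2 and below WT for Col4a3, Col4a4, Col4a5 and Col4a6, with rescued means between those of WT and mutant in all 6 panels.

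Averaged over Col4a1 and Col4a2, the deviation from the WT mean was 0.28, 0.23 and 0.32 on the mutant arrays and 0.09, 0.12 and 0.04 on the rescued arrays. Averaged over Col4a3 to Col4a6, it was −0.68, −0.44 and −0.43 on the mutant and −0.14, −0.27 and −0.21 on the rescued arrays. The rescued arrays lay between WT and mutant on both averages. Calls between rescued and mutant in this class depended on which arrays were used. That of Col4a1 was lost without any array other than rescued replicate 2 (adjusted p up to 0.118), that of Col4a4 without any other than mutant replicate 2 (up to 0.161) and that of Col4a5 without replicate 1 or 3 of either group (up to 0.147).

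Markers of several cell types differed between the same groups. Between mutant and WT, 31.6% of all genes were called, 15.1% higher and 16.5% lower. Of 12 markers of blood endothelium, which makes a basement membrane with Col4a1 and Col4a2, 11 rose and 1 fell in the mutant. Their mean log2 intensity was 6.55 to 6.60 on the WT, 7.94 to 8.41 on the mutant and 7.49 to 7.84 on the rescued arrays, and 8 of the 12 were below 6.77 in WT. Of 9 pericyte and smooth muscle markers, 5 rose and 1 fell, with a median difference of 0.44 and a largest of 4.8. Their means were 7.48 to 7.55 in WT, 8.47 to 8.74 in mutant and 8.08 to 8.33 in rescued pools. Of 6 corneal epithelium markers, 4 fell and 1 rose in the mutant (Krt14, by 1.22), and 5 of 5 corneal endothelium markers fell. Lens markers, 14 in all, had means of 8.67 to 9.02 in WT, 7.74 to 8.44 in mutant and 7.67 to 7.90 in rescued pools. Of these, 9 fell between WT and mutant and 0 were called between mutant and rescued (13.3% of all genes). The part of these cell types in the type IV differences was not tested.

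Among the fibrillar genes, 2 of 11 rose in the mutant and 0 fell (18.2%, against 31.6% of all genes), with a class median of 0.09. Col3a1, which encodes type III collagen, a fibrillar collagen of skin, vessels and healing wounds, had the largest difference of all 44 genes. It was at 7.45, 7.77 and 7.24 in WT, 9.45, 8.91 and 9.17 in mutant and 8.51, 8.76 and 8.52 in rescued pools. No groups overlapped, and the rescued arrays lay between the others. For Col3a1, mutant minus WT was 1.69 ± 0.16 (3.22-fold, limma adjusted p = 3.56e-05). Rescued corneas were lower than mutant by 0.58 ± 0.16 (adjusted p = 0.0412), a call lost without replicate 1 or 3 of either group (adjusted p up to 0.133) or with the Y-linked covariate (adjusted p = 0.0521), and higher than WT by 1.11 ± 0.16 (adjusted p = 0.00197), a call kept in all 6.

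The other fibrillar call was Col2a1, the gene of cartilage collagen, which in the eye is also a collagen of the vitreous. It was at 7.28, 7.56 and 7.47 in WT, 7.76, 7.59 and 7.85 in mutant and 7.65, 7.51 and 7.68 in rescued pools. The lowest mutant array was just above the highest WT array. The difference of Col2a1 between mutant and WT was 0.30 ± 0.09 (1.23-fold, adjusted p = 0.0372). This call was lost without replicate 1 or 3 of either group, where the adjusted p reached 0.13, and with the Y-linked covariate (adjusted p = 0.102). Of the 7 cartilage and sclera markers, 1 was called in that comparison (Sox9, higher), which is 14.3% against 31.6% of all genes.

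The genes of the type I and type V fibrils of the stroma were not called in any comparison with all arrays. Col1a1 was at 12.41, 12.13 and 12.26 in mutant and 12.31, 12.35 and 12.49 in rescued pools, beside the WT values above. WT replicates 1 and 2 lay within the range of the other groups and WT replicate 3 lay more than 1 log2 unit below all other arrays. For Col1a1, mutant minus WT was 0.38 ± 0.30 (adjusted p = 0.406), and −0.07 (adjusted p = 0.666) without WT replicate 3. For Col1a1, rescued minus mutant was 0.12 (adjusted p = 0.861), and rescued minus WT was 0.49 (adjusted p = 0.349), or 0.04 without WT replicate 3. Col1a2, the α2 chain, had a mutant minus WT difference of 0.13 with all arrays and −0.20 (adjusted p = 0.207) without WT replicate 3. A second, dimmer Col1a2 row, with a mean log2 intensity of 8.83, gave 0.32 for mutant minus WT with all arrays and was not called.

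Col5a1, which encodes the main chain of the type V collagen in stromal fibrils, was at 9.34, 9.55 and 8.53 in WT, 9.06, 8.77 and 8.81 in mutant and 9.34, 9.29 and 9.38 in rescued pools. All mutant arrays were below all rescued arrays, and WT replicate 3 was below every other array. For Col5a1, mutant minus WT was −0.26 with all arrays (adjusted p = 0.417), and −0.57 (adjusted p = 0.00406) without WT replicate 3. For Col5a1, rescued minus mutant was 0.46 (adjusted p = 0.212) in the fit of all 9 arrays, whose spread includes WT replicate 3. It was 0.46 (adjusted p = 0.019) in a fit of the 6 rescued and mutant arrays. Col5a2 had a mutant minus WT difference of 0.02 with all arrays and −0.26 (adjusted p = 0.241) without WT replicate 3. A second, dimmer Col5a1 row, with a mean log2 intensity of 6.97, gave 0.19 for mutant minus WT and −0.02 for rescued minus mutant, so the rows of this gene differed in sign.

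Type VI collagen is a heterotrimer whose common form joins the products of Col6a1, Col6a2 and Col6a3. Col6a1, the brightest gene of the class, was at 11.61, 11.74 and 10.95 in WT, 11.20, 10.91 and 11.01 in mutant and 11.59, 11.50 and 11.62 in rescued pools. WT replicate 3 lay among the mutant arrays, and the other WT arrays lay with the rescued arrays. For Col6a1, mutant minus WT was −0.39 with all arrays (adjusted p = 0.126), and −0.64 (adjusted p = 0.0014) without WT replicate 3. For Col6a1, rescued minus mutant was 0.53 (adjusted p = 0.081) over 9 arrays and 0.53 (adjusted p = 0.011) over the 6 arrays of that comparison. Rescued minus WT was 0.14 with all arrays and −0.11 without WT replicate 3, and was not called in either. A second, dimmer Col6a1 row had a mean log2 intensity of 8.62. With all arrays it gave −0.11 for mutant minus WT and 0.36 for rescued minus mutant, neither of them called, so its differences were smaller.

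Col6a2 followed with WT values of 10.69, 10.82 and 9.86, mutant values of 10.20, 9.95 and 9.98 and rescued values of 10.58, 10.58 and 10.75. Every rescued array was above every mutant array. For Col6a2, mutant minus WT was −0.41 with all arrays (adjusted p = 0.18), and −0.71 (adjusted p = 0.00103) without WT replicate 3. For Col6a2, rescued minus mutant was 0.59 over all arrays (adjusted p = 0.0984) and 0.59 over the 6 arrays (adjusted p = 0.0085). For Col6a3, mutant minus WT was −0.17 with all arrays (adjusted p = 0.654), and −0.51 (adjusted p = 0.0139) without WT replicate 3.

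**Figure D3:**
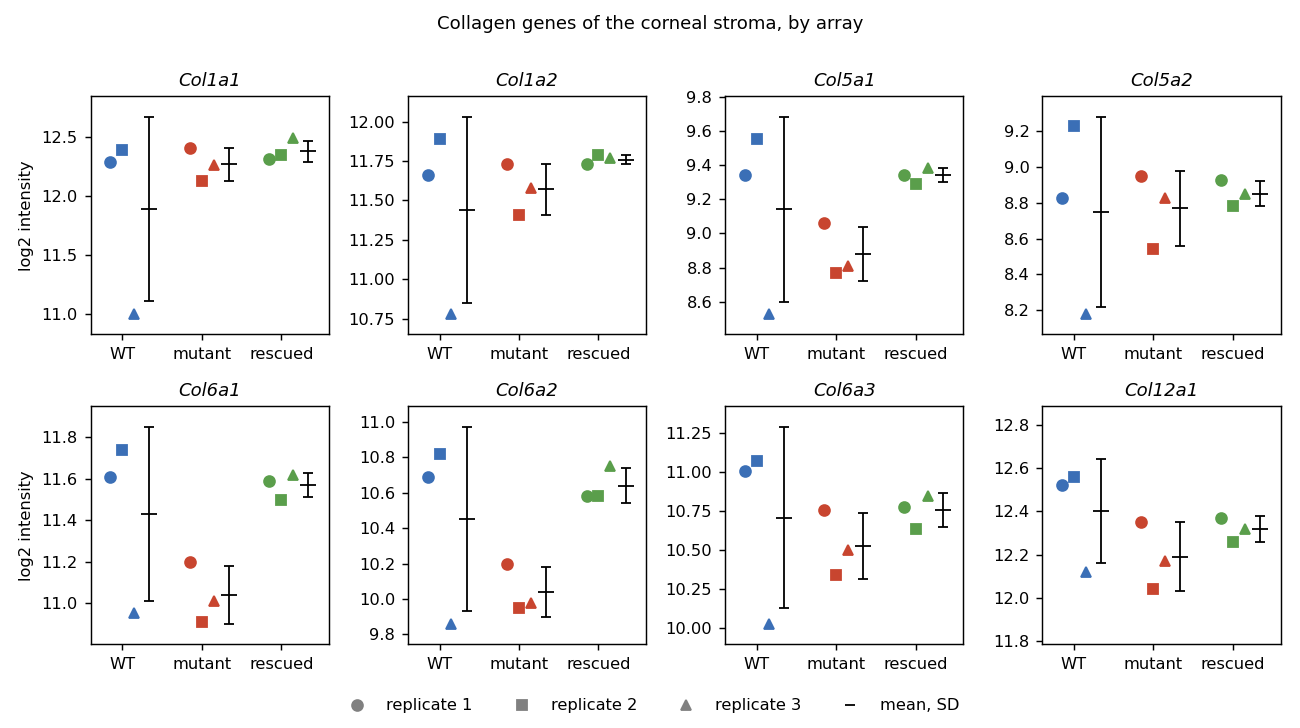
Log2 intensity (y axis, its range differs between panels) of 8 collagen genes of the stroma by group (x axis), with 1 point per array, marker shapes for replicates, and the mean and SD in black. WT replicate 3 is the lowest of the 9 arrays in 6 of the 8 panels, such as 11.00 for Col1a1, where the other 8 arrays lie between 12.13 and 12.49.

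Col6a5, a type VI gene whose chain is related to that of Col6a3, was the only type VI gene called with all arrays. That is 16.7% of the class between mutant and WT, against 31.6% of all genes. Col6a5 was at 5.97, 6.01 and 6.21 in WT, 7.15, 6.85 and 7.26 in mutant and 6.22, 6.34 and 6.33 in rescued pools. The mutant arrays were the only ones above 6.77, the median of all values. For Col6a5, mutant minus WT was 1.02 ± 0.11 (at least 2.03-fold, limma adjusted p = 8.01e-05) and rescued minus mutant −0.79 (adjusted p = 0.00143). Rescued minus WT was 0.23 (adjusted p = 0.21). Its genomic neighbours Col6a4 and Col6a6 were not called in any comparison.

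The FACIT class had 1 of 9 genes called between mutant and WT (11.1%, against 31.6% of all genes), with a class median of −0.03. That gene was Col14a1, whose product binds the surface of collagen fibrils. It was at 7.45, 7.53 and 7.00 in WT, 9.19, 8.66 and 8.59 in mutant and 8.18, 8.09 and 7.79 in rescued pools. The groups did not overlap, with rescued between WT and mutant. The difference of Col14a1 between mutant and WT was 1.49 ± 0.19 (2.81-fold, adjusted p = 0.000218), rescued minus mutant −0.79 (adjusted p = 0.0215) and rescued minus WT 0.70 (adjusted p = 0.0366). The call between rescued and mutant was lost without mutant replicate 1 or rescued replicate 3 (adjusted p up to 0.081). That between rescued and WT was lost without rescued replicate 1 or 2 or WT replicate 1 or 3, with 0.53 (adjusted p = 0.111) without the last, and with the Y-linked covariate (0.68, adjusted p = 0.0813).

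Col12a1, the other main FACIT gene of the stroma and the brightest of the class, was at 12.52, 12.56 and 12.12 in WT, 12.35, 12.04 and 12.17 in mutant and 12.37, 12.26 and 12.32 in rescued pools. All 3 groups overlapped. For Col12a1, mutant minus WT was −0.21 ± 0.12 (adjusted p = 0.242), and −0.35 (adjusted p = 0.0252) without WT replicate 3. For Col12a1, rescued minus mutant was 0.13 (adjusted p = 0.566) and rescued minus WT −0.08 (adjusted p = 0.749).

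Without WT replicate 3, 8 collagen genes were higher and 12 lower in the mutant, where 28.3% of all genes were called. Of the 12, 7 were also lower with all arrays and 5 were the stromal genes Col5a1, Col6a1, Col6a2, Col6a3 and Col12a1. Calls of Col2a1 and Col4a6 were lost and Col19a1, a FACIT gene, was higher (0.30, adjusted p = 0.0109). The 8 genes of the plot of stromal collagens were chosen after their values were seen, so these counts describe the array and are not separate evidence of a difference.

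Of 10 fibroblast and myofibroblast markers, 5 rose and 0 fell in the mutant (50%, against 31.6% of all genes). Their mean was 8.48 to 8.69 on the WT, 9.52 to 9.95 on the mutant and 9.24 to 9.48 on the rescued arrays, and 1 of the 10 was below 6.77 in WT. Their median difference between mutant and WT was 0.55, beside a largest of 4.91. Between rescued and WT 2 rose and 0 fell (20%, against 13.7% of all genes), with a median of 0.24 and a largest of 4.07. Keratocyte markers, 8 in all, had means of 11.44 to 11.60 in WT, 11.25 to 11.49 in mutant and 11.35 to 11.46 in rescued pools. In the mutant 1 was called higher (Cd34) and 4 lower (62.5%, against 31.6% of all genes). Among the 4 was Aldh3a1, with −0.47 for mutant minus WT and 0.43 for rescued minus mutant, beside −0.42 and 0.39 for Krt12. Whether the list is limited to keratocytes was not tested. The part of these cells in the differences of Col3a1, Col14a1, Col6a5 and the stromal genes was not tested.

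Among the transmembrane collagens, Col23a1 rose and Col17a1 and Col25a1 fell in the mutant, and Col13a1 was not called. Of this class 75% were called there, against 31.6% of all genes. Col17a1, which encodes the hemidesmosome protein BP180 of basal epithelial cells, was the brightest. It was at 12.38, 12.36 and 12.40 in WT, 11.85, 11.95 and 11.86 in mutant and 12.15, 12.10 and 12.18 in rescued pools. Replicates differed by at most 0.10, and the groups were in separate ranges with rescued in the middle. For Col17a1, mutant minus WT was −0.49 ± 0.06 (1.4-fold lower, adjusted p = 0.000151), rescued minus mutant 0.25 (adjusted p = 0.0184) and rescued minus WT −0.24 (adjusted p = 0.0255). The mutant and WT call was kept whichever array was left out. The rescued and mutant call was lost without replicate 1 or 3 of either group (adjusted p up to 0.0719), and the rescued and WT call without any array other than rescued replicate 3 (adjusted p up to 0.0894) or with the Y-linked covariate (adjusted p = 0.0577). The 6 corneal epithelium markers had means of 12.45 to 12.50 in WT, 12.00 to 12.08 in mutant and 12.35 to 12.36 in rescued pools. Between WT and mutant 4 of them fell and Krt14, a keratin of basal cells, rose (83.3% called, against 31.6% of all genes). The part of these markers in the Col17a1 difference was not tested.

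Col23a1 moved the other way, with 8.63, 8.63 and 8.45 in WT, 9.63, 9.33 and 9.52 in mutant and 9.05, 9.08 and 9.02 in rescued pools. No groups overlapped, and the rescued arrays were in the middle here too. The difference of Col23a1 between mutant and WT was 0.92 ± 0.09 (1.9-fold, adjusted p = 3.4e-05), rescued minus mutant −0.45 (adjusted p = 0.00852) and rescued minus WT 0.48 (adjusted p = 0.00617). It was 1 of 2 collagen genes called between rescued and mutant in all 6 fits without 1 array, with Col6a5. Col25a1, a transmembrane collagen known from neurons, was at 7.14 ± 0.10 in WT, 6.80 ± 0.09 in mutant and 7.01 ± 0.06 in rescued pools. For Col25a1, mutant minus WT was −0.34 (1.26-fold lower, adjusted p = 0.00693), and the other comparisons were not called. Col13a1 differed by −0.20 between mutant and WT (adjusted p = 0.215).

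The stretches before the starts of Col3a1, Col17a1 and Col23a1 are shown as those of the collagen genes with the largest fibrillar, and the transmembrane, differences. Capitals mark TATAAA, the TATA box, the CCAAT box (as ATTGG on the other strand) and the GC box (as CCGCCC). They lie at chr1:45311418-45311537 (plus strand), chr19:47692043-47692162 (minus strand) and chr11:51289800-51289919 (plus strand), in RefSeq's GRCm38.p6.
Col3a1: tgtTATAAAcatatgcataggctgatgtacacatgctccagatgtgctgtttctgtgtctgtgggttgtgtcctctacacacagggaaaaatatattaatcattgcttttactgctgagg
Col17a1: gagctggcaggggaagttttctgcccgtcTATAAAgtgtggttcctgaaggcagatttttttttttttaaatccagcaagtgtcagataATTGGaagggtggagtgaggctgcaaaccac
Col23a1: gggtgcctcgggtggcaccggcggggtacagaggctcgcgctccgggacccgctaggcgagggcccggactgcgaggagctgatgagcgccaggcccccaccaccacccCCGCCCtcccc

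RefSeq windows from 250 bases before to 50 after a start were given for 35 of the 44 collagen genes, 38 windows in all, and were searched on both strands. GGGCGG was in 23 of the 38 (60.5%), against 35.7% of 32851 windows of all genes. CCAAT was in 13 (34.2%, against 37.4%) and TATAAA in 5 (13.2%, against 13.6%). The CArG box, to which serum response factor binds, was in 1 window (that of Col6a4), against 1.63% of all windows. The motifs share no bases in the stretches printed, and a match describes the letters of a window, not a site in use.

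Col8a1 and Col8a2, the genes of the type VIII lattice of Descemet's membrane, were lower in the mutant. Col8a1 was at 9.99, 10.15 and 10.14 in WT, 9.38, 9.63 and 9.40 in mutant and 9.72, 9.72 and 9.65 in rescued pools. The 3 groups did not overlap. The difference of Col8a1 between mutant and WT was −0.62 ± 0.08 (1.54-fold lower, limma adjusted p = 0.000277), rescued minus mutant 0.23 (adjusted p = 0.0971) and rescued minus WT −0.39 (adjusted p = 0.0117). Without mutant replicate 2, rescued minus mutant was 0.31 (adjusted p = 0.029, called). Col8a2 was at 8.81 ± 0.07, 8.45 ± 0.05 and 8.70 ± 0.13 in WT, mutant and rescued corneas. For Col8a2, mutant minus WT was −0.36 ± 0.08 (1.28-fold lower, adjusted p = 0.00623), rescued minus mutant 0.25 (adjusted p = 0.0665) and rescued minus WT −0.11 (adjusted p = 0.443). The 5 corneal endothelium markers all fell in the mutant, where 16.5% of all genes were called lower. They had means of 11.42 to 11.48 in WT, 10.88 to 11.09 in mutant and 11.20 to 11.22 in rescued pools. Their part in the type VIII differences was not tested. The third gene of the class, Col10a1, a collagen of growth plate cartilage, was below 6.77 in every group and was not called.

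Col18a1 and Col15a1 are multiplexins, proteoglycan collagens of basement membranes, and the end of type XVIII collagen is released as endostatin. Col18a1 was at 6.42, 6.67 and 6.51 in WT, 7.28, 7.15 and 7.56 in mutant and 6.73, 6.96 and 6.73 in rescued pools. No groups overlapped. The difference of Col18a1 between mutant and WT was 0.79 ± 0.11 (at least 1.73-fold, adjusted p = 0.000551), rescued minus mutant −0.52 (adjusted p = 0.0166) and rescued minus WT 0.28 (adjusted p = 0.16). The call between rescued and mutant was lost without rescued replicate 1 or 3 (adjusted p up to 0.0634). Col15a1 was at 6.46, 6.30 and 6.51 in WT, 6.83, 6.49 and 7.05 in mutant and 6.39, 6.51 and 6.23 in rescued pools. Mutant replicate 2 lay within the WT range, and mutant minus WT was 0.37 ± 0.14 (adjusted p = 0.0662). Without that array it was 0.52 (adjusted p = 0.00777), and rescued minus mutant, −0.41 with all arrays (adjusted p = 0.0773), was −0.56 (adjusted p = 0.0134). The gene was also called between mutant and WT with array weights (adjusted p = 0.0336), with the Y-linked covariate (adjusted p = 0.0416) and without the genes of lowest intensity (adjusted p = 0.0498). It was not called there in any other alternative that included it. Among these were the replicate block (adjusted p = 0.0871) and the fit without WT replicate 3 (adjusted p = 0.0849). The blood endothelium and pericyte markers given above with the type IV genes differed between these groups too, and their part in the multiplexin values was not tested.

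**Figure D4:**
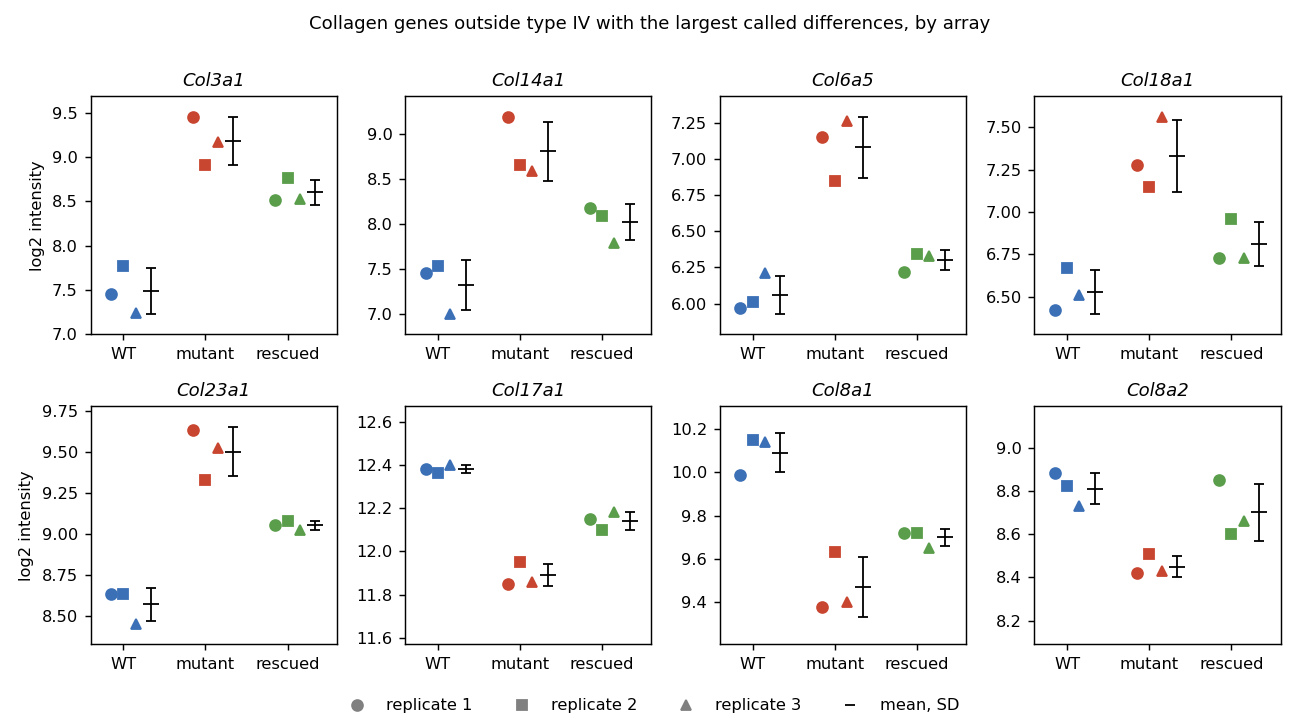
Log2 intensity (y axis, its range differs between panels) by group (x axis) of the 8 collagen genes outside type IV with the largest called differences between mutant and WT, with 1 point per array, marker shapes for replicates, and the mean and SD in black. Mutant arrays lie above all WT arrays for Col3a1, Col14a1, Col6a5, Col23a1 and Col18a1 and below them for Col17a1, Col8a1 and Col8a2.

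Col7a1, the gene of the anchoring fibrils, was at 8.40, 8.48 and 8.46 in WT, 8.47, 8.35 and 8.39 in mutant and 8.54, 8.46 and 8.64 in rescued pools. The groups overlapped in every comparison. For Col7a1, mutant minus WT was −0.05 (adjusted p = 0.672), rescued minus mutant 0.14 (adjusted p = 0.217) and rescued minus WT 0.10 (adjusted p = 0.425). Col26a1, the brighter gene of the remaining types, was at 7.55, 7.57 and 7.57 in WT, 7.44, 7.61 and 7.58 in mutant and 7.59, 7.57 and 7.65 in rescued pools. Its differences were −0.02 (adjusted p = 0.868), 0.06 (adjusted p = 0.611) and 0.04 (adjusted p = 0.738) in the same order.

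In all, 28 of the 44 collagen genes were not called in any comparison, and the same share over all genes was not counted. The log2 differences of these 28 ranged from −0.41 to 0.38 between mutant and WT, from −0.41 to 0.59 between rescued and mutant and from −0.16 to 0.49 between rescued and WT. They included the fibrillar genes Col5a3, Col11a1, Col11a2, Col24a1 and Col27a1 and all FACIT genes other than Col14a1.

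Genes that modify, trim and cross-link collagen are given next for the same arrays. Of 31 such genes, 9 rose and 6 fell between WT and mutant (48.4%, against 31.6% of all genes, median difference 0.02). The calls of Ppib, Tmem38b and Fkbp14 among them were each lost in some fits without 1 array (adjusted p up to 0.101). P4ha2, a prolyl 4-hydroxylase subunit needed for a stable triple helix, was at 7.65, 7.72 and 7.57 in WT, 9.87, 9.92 and 9.67 in mutant and 8.47, 8.73 and 8.11 in rescued pools. Plod2, a lysyl hydroxylase that sets the kind of cross-link, was at 7.39, 7.31 and 7.08, then 9.38, 9.23 and 9.36, then 8.51, 8.30 and 8.11. For both genes the groups were in separate ranges, with the rescued arrays between WT and mutant. The mutant exceeded WT by 2.17 ± 0.14 for P4ha2 (4.51-fold, adjusted p = 3.67e-06) and 2.06 ± 0.11 for Plod2 (4.18-fold, adjusted p = 1.64e-06). In the same order, rescued minus mutant was −1.38 (adjusted p = 0.000266) and −1.02 (adjusted p = 0.000453), and rescued minus WT 0.79 (adjusted p = 0.0055) and 1.05 (adjusted p = 0.000433).

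Pcolce2, an enhancer of the protease that removes the C-terminal propeptide of fibrillar procollagens, was at 9.83, 9.84 and 9.54 in WT, 7.77, 7.80 and 7.52 in mutant and 8.76, 8.46 and 8.89 in rescued pools. The order of the groups was the reverse of that of P4ha2. The difference of Pcolce2 between mutant and WT was −2.04 ± 0.13 (4.1-fold lower, adjusted p = 3.61e-06), rescued minus mutant 1.01 (adjusted p = 0.00096) and rescued minus WT −1.03 (adjusted p = 0.000998). Tll1, which encodes such a protease, was at 8.08, 8.01 and 7.81 in WT, 6.69, 6.47 and 6.59 in mutant and 6.36, 6.59 and 6.41 in rescued pools. Mutant and rescued overlapped, both below WT. Tll1 fell by 1.38 in the mutant (at least 2.61-fold, adjusted p = 5.71e-06) and by 1.51 in rescued pools (adjusted p = 2.46e-05), both against WT. In that list 2 genes were higher and 3 lower in rescued than in mutant corneas (16.1%, against 13.3% of all genes). Among them was Colgalt2, a collagen galactosyltransferase (0.44, adjusted p = 0.0428), whose call was lost without any array other than rescued replicate 2 (adjusted p up to 0.129). Between rescued and WT, 3 were higher and 3 lower (19.4%, against 13.7%).

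Of 10 collagen receptor genes, 4 rose and 3 fell between WT and mutant (70% against 31.6% of all genes). Among them were Gp6, below 6.77 in both groups, and Lair1, below it in WT. The call of Gp6 was lost without any array other than WT replicate 3 (adjusted p up to 0.12). That of Lair1 was lost without mutant replicate 1 or WT replicate 1 or 3 (up to 0.0777). In rescued corneas 1 was higher and 1 lower than in mutant (20% against 13.3%), and 2 were higher and 1 lower than in WT (30% against 13.7%). Itgb1, the β1 subunit shared by the collagen-binding integrins, was higher in the mutant by 0.78 (adjusted p = 4.07e-05), rescued minus mutant was −0.52 (adjusted p = 0.00183) and rescued minus WT 0.27 (adjusted p = 0.0449), a call lost without any array other than rescued replicate 3 (adjusted p up to 0.139). Its partners differed in direction, with 0.56 for Itga1 (adjusted p = 0.000993) and −0.68 for Itga2 (adjusted p = 0.00055) between mutant and WT. Both were also called between rescued and WT, Itga1 at 0.48 (adjusted p = 0.00763) and Itga2 at −0.51 (adjusted p = 0.00844). Ddr1, a receptor tyrosine kinase for collagen, was at −0.49 between mutant and WT (adjusted p = 0.00171) and at 0.36 between rescued and mutant (adjusted p = 0.0215). The second call was lost without mutant replicate 1 or 3 or rescued replicate 2 or 3 (adjusted p up to 0.0827).

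Among 15 genes of collagen breakdown and its inhibitors, 8 rose and 1 fell between WT and mutant (60% against 31.6% of all genes, median 0.47). Of 8 macrophage markers, 7 rose and 1 fell in that comparison (100%, against 31.6% of all genes). Their means were 7.35 to 7.43 on the WT, 8.14 to 8.75 on the mutant and 7.99 to 8.46 on the rescued arrays, and 5 of the 8 were below 6.77 in WT. Their part in the values of these genes was not tested. Mmp3, a metalloproteinase with many matrix substrates, was at 6.18, 6.44 and 6.54 in WT, 11.76, 10.81 and 11.64 in mutant and 9.56, 10.27 and 9.11 in rescued pools. No groups overlapped. For Mmp3, mutant minus WT was 5.02 ± 0.30 (at least 32.4-fold), rescued minus mutant −1.75 (adjusted p = 0.00492) and rescued minus WT 3.26 (at least 9.6-fold, adjusted p = 0.000213). The protease inhibitor genes Timp1 and Timp3 rose by 2.44 (at least 5.43-fold) and 0.85 (adjusted p = 0.00431), and Ctsk, the collagen-cutting cathepsin K, by 0.83 (adjusted p = 0.00617). In rescued against mutant corneas, 1 gene was higher (Mmp10, 0.87, adjusted p = 0.00605) and 4 were lower (33.3% in all, against 13.3%), among them Timp1 (−1.37, adjusted p = 0.00658) and Timp3 (−0.78, adjusted p = 0.0177). Against WT, 5 were higher in rescued corneas and 0 lower (33.3% against 13.7%), among them Timp1 (1.07, adjusted p = 0.0206), Mmp10 (0.64, adjusted p = 0.0253) and Mmp13 (0.62, adjusted p = 0.0138, below 6.77 in both groups). Some of these calls were lost when 1 array was left out. That of Timp3 between rescued and mutant was lost without mutant replicate 1 or 2 or rescued replicate 3 (adjusted p up to 0.0678). Between rescued and WT, that of Timp1 was lost without any array other than rescued replicate 3 (up to 0.0754), that of Mmp10 without rescued replicate 2 or WT replicate 1 or 2 (up to 0.0845) and that of Mmp13 without WT replicate 2 (0.0506).

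Small leucine-rich proteoglycans bind collagen fibrils and help to set their diameter and spacing. Of 13, 4 rose and 2 fell in the mutant (46.2% against 31.6% of all genes, median 0.34). The calls of Kera and Ogn, which fell, were each lost in some fits without 1 array (adjusted p up to 0.0945). Aspn, which encodes asporin, was at 4.88, 4.56 and 4.33 in WT, 8.47, 7.17 and 7.89 in mutant and 6.85, 6.48 and 6.92 in rescued pools. WT arrays were all far below 6.77 and mutant arrays all above it. For Aspn, mutant minus WT was 3.25 ± 0.28 (at least 9.54-fold), rescued minus mutant −1.10 (adjusted p = 0.0325) and rescued minus WT 2.16 (adjusted p = 0.0013). Omd, Fmod and Ecm2 differed by 1.19 (adjusted p = 0.000765), 0.64 (adjusted p = 0.0387) and 0.55 (adjusted p = 0.00256) between mutant and WT. The means of Omd and Ecm2 lay below 6.77 in every group. Fmod was at 9.66, 9.90 and 8.91 in the WT pools, and its difference was 0.35 (adjusted p = 0.0292) without WT replicate 3. Its call was lost without WT replicate 1 or any 1 mutant array (adjusted p up to 0.106). Omd was also lower in rescued than in mutant corneas (−0.63, adjusted p = 0.0482), as 1 of 2 in this list, with Aspn (15.4% against 13.3% of all genes). Both of these calls depended on the arrays used. That of Aspn was lost without any array other than mutant replicate 2 (adjusted p up to 0.0976), and that of Omd without any other than mutant replicate 2 or rescued replicate 1 (up to 0.158). Aspn was the 1 gene called between rescued and WT (7.69% against 13.7%).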

How the data were processed

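Total RNA was extracted with Trizol, amplified, labelled with biotin and hybridised, per the labels' protocols. The deposited values were read as log2 intensities per probe set that the authors normalised between arrays, from their range (2.14 to 14.3) and nearly equal array medians. No header or label states the log base, the normalisation or the software. Of 41345 rows, 23521 had exactly 1 symbol, 1814 had several and 16010 were not listed or had no symbol. Collagens held 47 rows with 1 symbol; 1 further row had several symbols and was not used. No build is stated for the array annotation.

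All 22180 genes were fitted with limma 3.58.1 (R 4.3.3) over all 9 arrays without a covariate, with lmFit, contrasts and eBayes. Tests were two-sided, and p-values were adjusted over all genes of a comparison. The script was tested on simulated data, with changes of 0.5, 1, 2 or 3 log2 units added to 50 genes each on the mutant arrays. Between mutant and WT it called 56% of genes changed by 0.5 log2 units, 94% of those changed by 1, and 20 unchanged genes. Far fewer genes were changed there than the 7004 called in the data. These shares therefore do not tell what part of the true differences was called in the data. Folds whose lower group mean lay below 6.77 are given as "at least", and none is given where both groups lay below it.

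Per-array values were given for collagens called at 2-fold or more, and for the brightest of each class. Up to 4 called genes per pathway list with the largest difference were named in each comparison. Those of other genes were chosen after the values were seen. Members, classes, marker lists and pathway lists were chosen with earlier results of these data known.

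Alternatives were quantile normalisation, median centring, filters on intensity, the mean of a gene's rows, all rows, trend, robust and array-weight options, 6 arrays per comparison, a replicate block, a Y-linked covariate, stricter thresholds and leaving out each array. Same-numbered arrays of different groups had correlations of their deviations from −0.016 to 0.063, so the numbers do not pair the arrays. Sequences are RefSeq's. Figures were drawn with matplotlib 3.10.9 (Python 3.11.15).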

Additional observations from a re-analysis of the deposited data

How the results depend on the processing

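The number of arrays limits the precision. Leaving out 1 array at a time, 14 of 16 collagen calls between mutant and WT, 2 of 9 between rescued and mutant and 3 of 5 between rescued and WT were kept in all 6 fits. The counts ran from 7 to 9 higher and 7 to 12 lower for mutant against WT, 0 to 5 and 2 to 6 for rescued against mutant, and 2 to 4 and 1 to 2 for rescued against WT. In those fits 26.7% to 28.6%, 8.15% to 12.1% and 8.17% to 13.1% of all genes were called, in the same order. A 2-fold minimum left 3 higher and 0 lower, 0 and 0, and 1 and 0 in the same order (5.03%, 1.41% and 1.68% of all genes). An adjusted p under 0.01 left 0 and 2 for rescued against mutant (6.4% of all genes) and 2 and 0 for rescued against WT (6.19%). The replicate block gave 7 and 8, 1 and 4, and 3 and 1, and the numbers do not pair the arrays. The Y-linked covariate gave 1 higher and 5 lower for rescued against mutant (12.5% of all genes), and 2 higher and 1 lower for rescued against WT (10.4%). Collagen genes higher in rescued than in mutant numbered 1 after quantile normalisation, 6 with trend and 5 with array weights, against 3. They numbered 8 and 5 with filters that kept genes above the median or the 25th percentile of intensity (fewer genes tested). Of all genes, 13.9%, 16.7% and 13.6% were called in either direction with the first 3 settings, against 13.3%. With the filters, 30.2% and 19.1% of the genes tested were called. The cause of these shifts was not tested.

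Over 27 named collagens and 3 comparisons (81 results), 1461 alternative values kept direction and side of the threshold, 101 lost and 30 gained a call, and 22 changed sign, none of them called. These totals include the stricter thresholds, which reused the main fit. Direction could not change there, no call could be gained, and some of the lost calls came from those thresholds alone. The totals are therefore not a measure of stability. With arrays left out in turn, mutant minus WT ran from −0.07 to 0.63 for Col1a1, from −0.20 to 0.35 for Col1a2, from −0.26 to 0.26 for Col5a2, from −0.51 to 0.01 for Col6a3 and from −0.05 to 0.03 for Col26a1. Rescued minus WT ran from −0.11 to 0.03 for Col15a1, −0.01 to 0.54 for Col1a2, −0.11 to 0.40 for Col5a1, −0.18 to 0.34 for Col5a2, −0.11 to 0.29 for Col6a1, −0.11 to 0.36 for Col6a2 and −0.29 to 0.23 for Col6a3, and rescued minus mutant from −0.04 to 0.17 for Col5a2. The Y-linked covariate gave −0.04 for Col1a2 and −0.12 for Col5a2 between mutant and WT, and 0.03 for Col15a1, −0.02 for Col5a2 and −0.04 for Col6a3 between rescued and WT. Array weights gave −0.05 for Col5a2 (mutant minus WT) and −0.04 for Col6a3 (rescued minus WT), and quantile normalisation 0.03 for Col26a1 (mutant minus WT).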
